A study of Gallus gallus and Anas platyrhynchos and Coturnix japonica with 43 samples.

Results

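Gene expression in the hypothalamus of the duck was compared with that of the chicken on spotted chicken cDNA arrays, 7 of the 43 arrays of the study, taken by their titles: 3 of duck hypothalamus and 4 of chicken hypothalamus. The hypothalamus is the part of the ventral forebrain that controls feeding, body temperature, water balance, reproduction and, through the pituitary, most endocrine axes. It holds neurons that release neuropeptides, ordinary glutamate and GABA neurons, myelinating oligodendrocytes and astrocytes. Each array was hybridised with sample cDNA labelled with Cy3 and with cDNA of a common chicken RNA pool (liver, abdominal fat, breast muscle and hypothalamus) labelled with Cy5, and the dyes were never exchanged. The probes were therefore chicken sequences in every comparison, and a lower RNA level in the duck cannot be told apart from a weaker binding of duck cDNA to a chicken probe.

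The ducks (Anas platyrhynchos) were fed a standard ration in floor pens with a wading pool, and the sources used here give neither their age nor their sex. The chickens (Gallus gallus) were 9-week-old males of the lean line, selected from broilers for low abdominal fat and kept under 14 h light and 10 h dark. Species thus differed together with housing and selection history, and possibly with age and sex. Further groups serve as background: 3 White turkey (Meleagris gallopavo) and 3 Japanese quail (Coturnix japonica) hypothalami, and 4 duck livers beside 4 livers of 6-week-old broiler cockerels. All of these samples were prepared with the same kind of RNA extraction kit and 25 micrograms of RNA. That the samples of a group came from separate birds is not stated, so the p-values measure the spread between samples, which may be technical in part.

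Values are log2 ratios of the 2 channels centred on the median of each array, and were read as sample over the reference pool. This direction is likely rather than stated: the median of 42 hepatocyte and plasma protein genes was 0.62 in chicken liver and -1.12 in chicken hypothalamus. A level below means this log2 ratio, and a gene or probe is called at a Benjamini-Hochberg adjusted p under 0.05 in limma's moderated test over all 6428 genes or 18547 probes. Array medians of the deposited ratio in the 7 arrays lay between 0.535 and 1.83. The SD over spots was 0.642, 0.912 and 1.19 in duck replicates 1 to 3, against 0.695, 0.826, 0.795 and 0.50 in chicken replicates 1 to 4. Spot intensities were not part of the values used, and the precision is set by how few arrays there are.

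The 7 arrays did not fall by species. Duck replicate 1 correlated with chicken replicates 1 and 2 at Pearson r of 0.597 and 0.514 over 18547 probes, but with duck replicates 2 and 3 at 0.084 and -0.088. Duck replicates 2 and 3 correlated with chicken replicate 3 at 0.538 and 0.490. Average linkage put duck replicate 1 with chicken replicates 1 and 2 in a first set, and duck replicates 2 and 3 with chicken replicates 3 and 4 in a second. The 9 pairs within a set had a median r of 0.538, and the 12 pairs between sets a median of -0.087. The labels name no batch that matches these sets, though they state that the labelled reference was pooled separately for each round of hybridisation. The sets were found in the data and hold both species. They are used below to give the difference within each and as a term in an alternative fit. Because they come from the same values, that fit is no separate check of the calls.

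**Figure D1:**
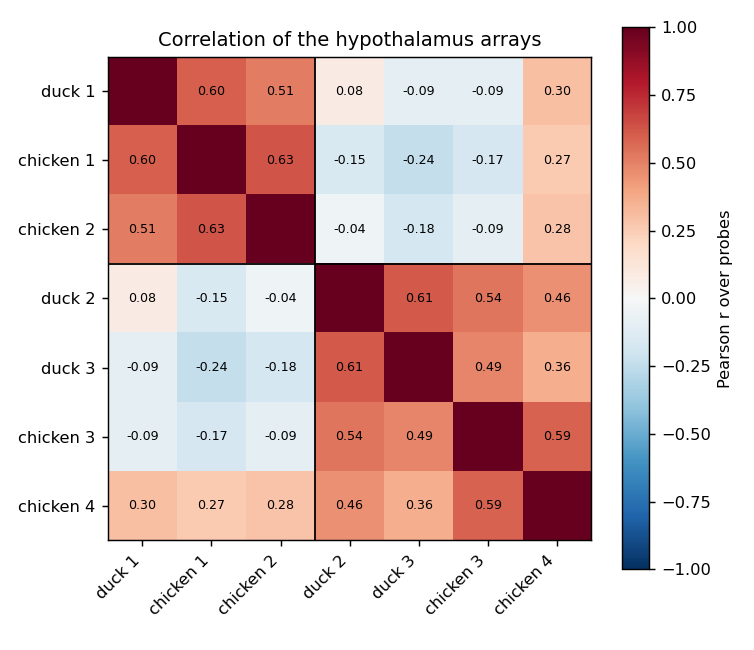
Pearson correlation of log2 ratios over 18547 probes between the 7 hypothalamus arrays, with the colour scale running from -1 to 1. The black lines separate the set of duck replicate 1 and chicken replicates 1 and 2 from the set of duck replicates 2 and 3 and chicken replicates 3 and 4; pairs within a set reach 0.630, while pairs between sets reach 0.303.

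The called genes were all lower in duck hypothalamus. Of 6428 genes, 21 (0.327%) passed the test as lower in duck and 0 as higher, while at an unadjusted p under 0.05 there were 329 lower and 238 higher. Their log2 differences ran from -1.76 to -4.03, which is 3.38 to 16.3-fold lower in duck, and all 3 duck values lay below all 4 chicken values for each of the 21. Over all genes the median difference was -0.01, and groups did not overlap for 252 genes lower in duck (3.92%) and 172 higher (2.68%). Without duck replicate 3, 3 genes were called: AP1M1, SNRK and ARIH1. Without it the 21 differences ran from -1.48 to -3.85. Their sign could not change, since no duck value reached a chicken value.

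The count depended on single arrays. It was 77 genes, 54 lower and 23 higher in duck, without duck replicate 1, 5 genes without duck replicate 2, 6 without chicken replicate 1 and 11 without chicken replicate 2. Fitted to the 7 arrays alone it was 3, and with estimated array weights 649, of which 354 were higher in duck, so the one-sided direction depends on the fit and on duck replicate 1. AP1M1, SNRK and ARIH1 were called under each left-out array. The sign of the 21 differences was fixed in these fits, because the groups of each gene did not overlap. With a term for the array set, 16 of the 21 were called and 0 others. Within the first set the 21 differences ran from -1.19 to -4.02, and within the second from -1.72 to -3.78. Their negative sign within each set was likewise fixed by the separate groups.

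AP1M1, the medium subunit of the AP-1 clathrin adaptor that sorts cargo between the trans-Golgi network and endosomes, had the largest difference. Its level was -2.43, -3.11 and -3.31 in duck replicates 1 to 3, against 1.71, 1.47, 0.26 and 0.89 in chicken replicates 1 to 4. Every duck value lay far below the lowest chicken value, that of replicate 3. The difference was -4.03 ± 0.61 (SE, 16.3-fold, limma adjusted p = 0.00026), and -3.85 without duck replicate 3 (adjusted p = 0.018). Within the array sets it was -4.02 and -3.78. AP1M1 was measured by a single probe.

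SNRK, a serine/threonine kinase related to AMPK, came next. It was at -1.84, -2.25 and -3.50 in duck hypothalamus and at 1.53, 1.74, 0.50 and 0.56 in chicken hypothalamus, so the lowest chicken array stood well above the highest duck array. The difference was -3.61 ± 0.56 (SE, 12.2-fold, limma adjusted p = 0.0003), and -3.13 without duck replicate 3 (adjusted p = 0.029). SNRK too rests on 1 probe.

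ARIH1, an E3 ubiquitin ligase of the RBR class that works with cullin-RING ligases, was measured by 2 probes. Averaged over its 2 probes it was at -1.30, -2.36 and -3.16 in duck and at 0.95, 0.76, 1.10 and 0.38 in chicken. The 2 probes fell by 3.87 and 2.27 on the log2 scale, and both were called. The gene's difference was -3.07 ± 0.46 (SE, limma adjusted p = 0.00026), and -2.63 without duck replicate 3 (adjusted p = 0.022).

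GFAP, the intermediate filament protein that defines astrocytes, was also called. Its level was -0.96, -2.10 and -2.47 in duck, against 1.13, 1.32, -0.31 and 0.40 in chicken. The lowest chicken value, in replicate 3, lay above the highest duck value, in replicate 1. The difference was -2.48 ± 0.46 (SE, 5.58-fold, limma adjusted p = 0.0044), with -2.81 and -2.15 for its 2 probes. Without duck replicate 3 it was -2.17 with an adjusted p of 0.16. GFAP averaged -1.84 in duck hypothalamus and -1.63 ± 0.97 (SD) in duck liver, so in duck it was no higher in hypothalamus than in liver. In chicken it averaged 0.64 in hypothalamus and -0.83 ± 0.87 (SD) in liver.

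A group of 4 called genes encodes enzymes and transporters of membranes and organelles. SLC35E1, a member of the nucleotide sugar transporter family, differed by -2.61. ATP8A2, a neuronal phospholipid flippase, was at -0.80, -1.44 and -2.38 in duck and at 1.04, 0.72, 0.17 and 0.10 in chicken, a difference of -2.05. NT5M, the mitochondrial deoxyribonucleotidase, differed by -2.45, and all 3 duck arrays (-1.69, -2.93 and -3.32) lay below the lowest of the chicken arrays (0.36, -0.21, -0.30 and -0.63). CYP2D6, listed under the name of a human drug-metabolising cytochrome P450 whose relatives may share the probe, differed by -2.27.

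CAMKK2, the calcium/calmodulin-dependent kinase that phosphorylates AMPK and that in mouse hypothalamus takes part in the feeding response to ghrelin, was at -1.41, -2.56 and -2.30 in duck. In chicken it was at 1.34, 0.37, -0.38 and -0.41. The difference was -2.32 ± 0.51 (SE, limma adjusted p = 0.022), and the 2 chicken arrays of the second set were the lower ones. SNRK was also called, but the other 15 measured members of a list of AMPK subunits and related kinases were not, with differences between -0.45 (PRKAG3) and 1.22 (STRADB).

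RNA and ribosome factors made up a further group among the called genes. MRTO4, a ribosome assembly factor, was at -1.42, -2.90 and -3.07 in duck and at 0.74, -0.42, 0.39 and -0.24 in chicken (difference -2.58). PPIL4, an RNA-binding cyclophilin, was at -1.23, -1.39 and -3.28 in duck and at 0.41, 1.84, -0.47 and 0.39 in chicken (difference -2.51). Without duck replicate 3 its difference was -1.85 (limma adjusted p = 0.72). METTL15P1, a symbol of the methyltransferase-like family given by the array's annotation, was at -0.34, -1.65 and -1.89 in duck and at 1.89, 2.03, 0.74 and 0.65 in chicken (difference -2.62). The other called genes of the rule were SMIM15, a small membrane protein (-2.53), C4orf48, which encodes a small secreted neuropeptide-like protein (-2.08), and FAM13B (-2.08).

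The remaining 6 of the 21 are named here after their values were seen. They were AKAIN1 (-2.04), which binds protein kinase A, CLSTN3 (-2.03), a synaptic adhesion protein, and OARD1 (-1.97), an ADP-ribose hydrolase. Also among them were NPTX2 (-1.82), a synaptic pentraxin, PSAP (-1.80), the precursor of the saposins of the lysosome, and RBM3 (-1.76), a cold-inducible RNA-binding protein. RBM3 was carried by 3 probes that fell by 3.07, 1.5 and 0.71, of which the first was called. PSAP had 2 probes, at -2.04 and -1.57.

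**Figure D2:**
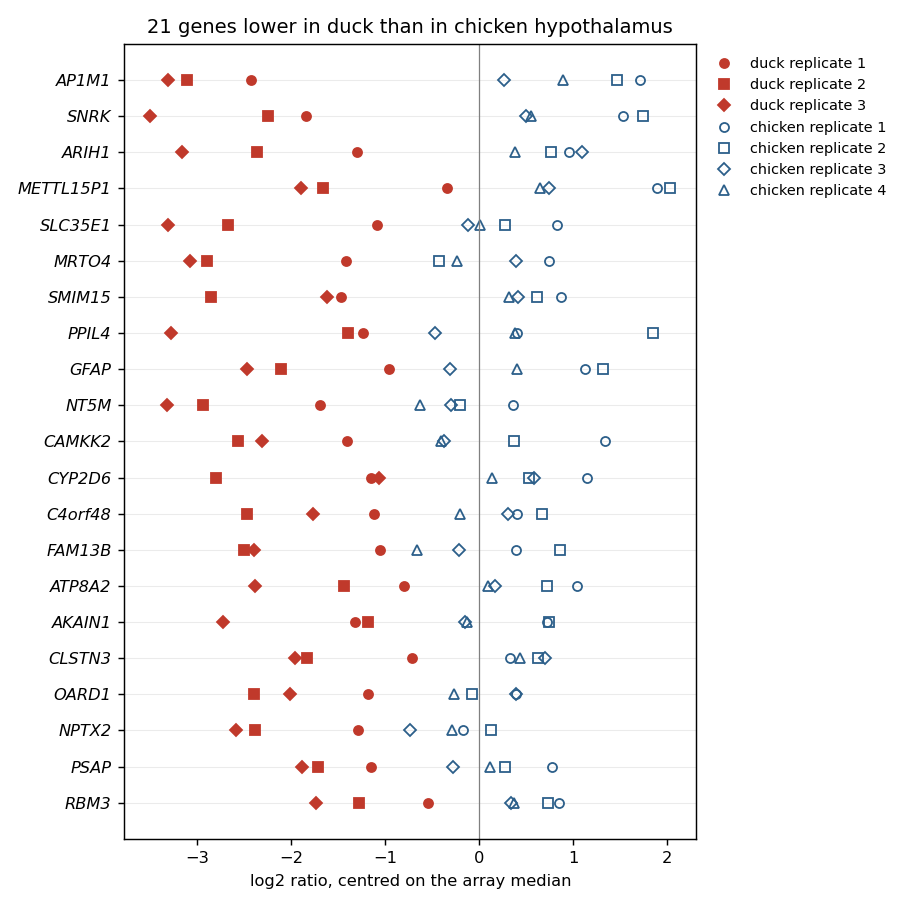
Log2 ratio centred on the array median for the 21 genes called lower in duck, 1 row per gene, with filled symbols for the 3 duck arrays and open symbols for the 4 chicken arrays; the symbol shape gives the replicate number. In every row all duck symbols lie left of all chicken symbols, and duck replicate 1 is the rightmost duck symbol in every row but those of CYP2D6 and AKAIN1.

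Single probes gave the same one-sided picture. Of 18547 probes, 92 (0.496%) were called, all lower in duck, and 91 of them had groups that did not overlap. They comprised 40 probes of 39 named genes and 52 probes without a gene name in the table used. Without duck replicate 3, 15 probes were called, and 67 with a term for the array set. Without duck replicate 1 the count was 272, of which 70 were higher in duck. It was 16 without duck replicate 2, 27 without chicken replicate 1 and 45 without chicken replicate 2.

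Different probes of a gene often disagreed. Of the 39 genes with a called probe, 18 were not called as genes; each of these had further probes, none of which was called, and for 13 of the 18 another probe had a positive difference. BMP7, a secreted bone morphogenetic protein, is the widest case. One of its probes gave the largest difference on the array, -4.06: it was at -2.39, -3.26 and -3.45 in duck and at 1.52, 1.43, 0.76 and 0.37 in chicken. The other gave 1.39, with duck arrays at -0.10, 1.96 and 2.09 and chicken arrays at -0.11, -1.29, 1.14 and -0.03. WASF2, an actin regulator with 4 probes, ranged from -2.95 to 0.40, and PDCD4, an inhibitor of translation, from -3.11 to 1.00. Since 17 of the 21 called genes rest on 1 probe, probes could be compared in only 4 of them (ARIH1, GFAP, PSAP and RBM3). Every probe of these 4 was lower in duck, and the other 3 than ARIH1 had 1 probe called. Genes were called on the mean of their probes, which favours genes whose probes go the same way. This is therefore no separate check of the calls.

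The called probes were concentrated in a few rows of the printed grids. Each of 48 print blocks has 20 rows, read from the spot identifiers, and rows 1 to 3 held 62 of the 92 called probes, 2.30% of the 2692 probes there. Row 3 alone held 34. In rows 1 to 3 all probes together had a median difference of -0.39. Their medians were 0.19, -0.46 and -0.76 in duck replicates 1 to 3 and 0.24, 0.32, -0.06 and 0.02 in chicken replicates 1 to 4, so duck replicates 2 and 3 were low over the whole region. In rows 8 to 12 the medians of the difference lay between 0.25 and 0.30. Rows also differ in clone source: 33 of the 40 named called probes came from 1 run of expressed sequence tag accessions with 1683 probes, of which 1504 lie in rows 1 to 3. Row position and clone source thus largely went together. Row 6 held 158 probes of this run and 6 called probes, at a median difference of -0.13. Row 5 held 2 of the run and 0 called, at -0.32, and row 14 held 0 of the run and 8 called, at -0.02. The part of either in the calls was not tested beyond the centring that follows.

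When each grid row was centred on its own median on each array, an alternative added after seeing the data, 11 genes were called, 10 lower and 1 higher in duck. The 10 were all among the 21: AP1M1 (-3.57), SNRK (-3.20), ARIH1 (-2.84), METTL15P1 (-2.30), SLC35E1 (-2.20), GFAP (-2.04, limma adjusted p = 0.0031), ATP8A2 (-1.72), PSAP (-1.71), OARD1 (-1.62) and RBM3 (-1.55). The other 11 stayed lower in duck, with adjusted p between 0.072 and 0.14. The gene called higher was ZFYVE27, which encodes protrudin, an endoplasmic reticulum protein of neurite outgrowth. It is named here after its values were seen, and without row centring it was at 1.03, 0.65 and 0.90 in duck and -0.17, -0.81, -0.59 and -0.49 in chicken, not called (difference 1.38, adjusted p = 0.29).

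**Figure D3:**
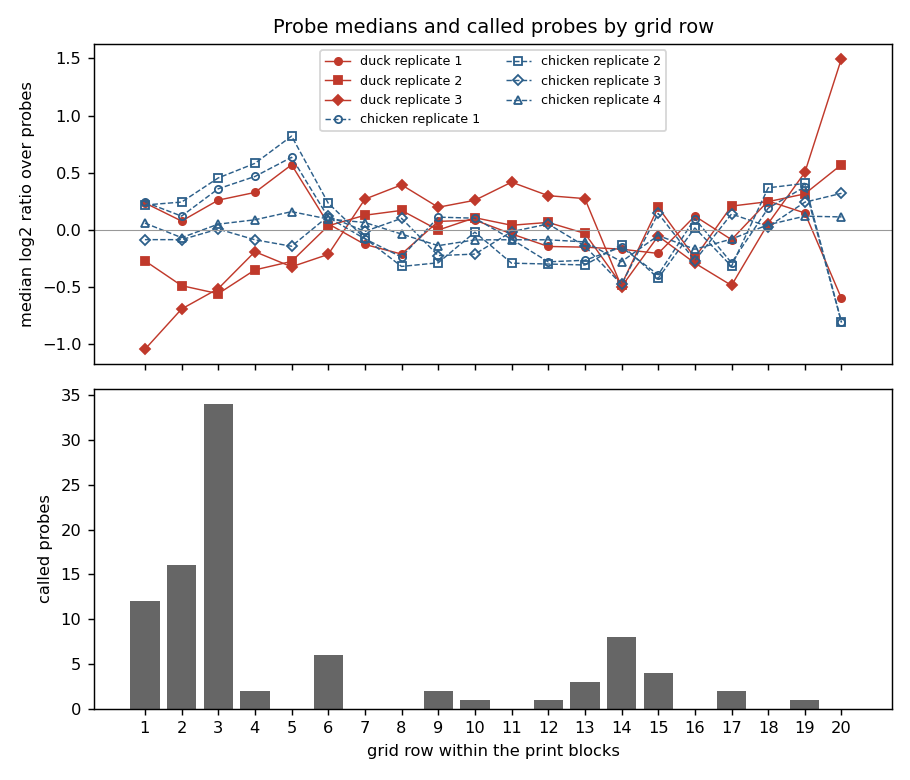
Top, median log2 ratio over the probes of each of the 20 grid rows, 1 line per array (filled symbols duck, open symbols chicken); bottom, number of probes called lower in duck by row. In rows 1 to 3, which hold 62 of 92 called probes, duck replicates 2 and 3 lie below the other 5 arrays, and in row 20, which has no named gene, the arrays spread from -0.81 to 1.5.

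Genes higher in duck did not pass the test. The smallest adjusted p among them belonged to FASTK, a mitochondrial RNA-binding protein, named after its values were seen. It was at 0.27, 2.43 and 2.39 in duck and at -0.11, -0.41, 0.34 and 0.30 in chicken, a difference of 1.67 with an adjusted p of 0.062. Its groups overlapped, because duck replicate 1 lay below chicken replicates 3 and 4.

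The defining markers of neurons and myelin had negative differences, but only GFAP among the defining markers of brain cells was called. STMN3, a neuronal microtubule regulator, was at -0.19, -1.04 and -0.40 in duck and at 1.61, 0.70, 1.08 and 1.10 in chicken (difference -1.66, adjusted p = 0.19). SNCB, beta-synuclein, was at 0.21, -0.18 and -0.58 in duck and at 1.66, 1.32, 0.35 and 1.37 in chicken (difference -1.36). ENO2, the neuronal enolase, was at 0.21, -0.38 and -0.77 in duck and at 0.62, 0.69, 0.88 and 0.56 in chicken (difference -1.0). For these 3 and for CNP the groups did not overlap, whereas they did for TUBB3, CKB, MBP and PTPRN. Over all genes, groups did not overlap for 3.92% lower in duck and 2.68% higher.

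Duck replicate 3 was low for some of these markers and not for others. MBP, the myelin basic protein, was at 0.49 and -0.35 in duck replicates 1 and 2 and at -2.05 in replicate 3, against 0.30, 0.89, 0.39 and 0.81 in chicken. TUBB3, neuronal beta-tubulin, was at 1.54 and 0.65 and then at -2.59 in replicate 3, against 1.79, 0.82, 0.00 and 0.98 in chicken. In 4 duck livers MBP averaged -1.87 ± 0.42 and TUBB3 -0.99 ± 0.48 (SD), so that array was at or below duck liver for both. Their probes lie in grid rows 1 and 3, where all probes on duck replicate 3 had medians of -1.05 and -0.51. With grid rows centred, duck replicate 3 was at -1.35 for MBP and -1.68 for TUBB3. Duck liver was not compared on that scale. CNP, an enzyme of myelin, was instead higher in duck replicate 3 (0.28) than in replicates 1 and 2 (-0.69 and -0.75). PTPRN, a dense-core vesicle protein, was at -0.54 in duck replicate 3, against an average of -1.69 ± 0.38 in duck liver. The difference of TUBB3 was -1.03 with and 0.20 without this array, and that of PTPRN -0.19 with and 0.37 without it. For MBP it was -1.23 with and -0.53 without the array, and for CNP -1.33 and -1.66.

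Lists of brain genes had their lowest medians in duck replicate 3. The median of 18 myelin and oligodendrocyte genes was 0.40, -0.29 and -1.17 in duck replicates 1 to 3, against 0.31, 0.75, -0.02 and 0.12 in chicken replicates 1 to 4. For 27 neuronal cytoskeleton and axon genes it was 0.26, -0.35 and -0.77 in duck, against 0.54, 0.24, 0.01 and 0.19 in chicken. For 18 astrocyte and neural matrix genes it was 0.20, -0.33 and -0.87 in duck, against 0.35, 0.62, -0.25 and 0.17 in chicken. In each of these lists duck replicate 1 lay within the chicken range, and duck replicates 2 and 3 lay below it. Over all genes the medians of duck replicates 2 and 3 were -0.10 and -0.13, against a lowest chicken median of -0.08.

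Read as differences, the list medians were -0.69 for myelin, -0.51 for axon and -0.46 for astrocyte genes, beside -0.01 for all genes. Without duck replicate 3 they were -0.20, -0.27 and -0.18, beside 0.04 for all genes. With grid rows centred they were -0.31, -0.37 and -0.16, beside 0.02. Of the members, 15 of 18 myelin, 19 of 27 axon and 13 of 18 astrocyte genes had a negative difference, as did 3283 of all 6428 genes. In bulk tissue, fewer cells of a type and less RNA per cell cannot be told apart.

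Among myelin genes 0 of 18 were called, beside 21 of all 6428 genes (0.327%). At that share, lists as short as those given here would most often hold 0 called genes. The lowest was CNP (-1.33) and the highest MOG, a glycoprotein of the outer myelin surface, at 0.35, 0.78 and 0.63 in duck and -0.60, 0.41, 0.41 and -0.02 in chicken (difference 0.53). Among axon genes 0 of 27 were called, from STMN3 at -1.66 to NEFL, the light neurofilament chain, at 0.33. Among astrocyte genes 1 of 18 was called, GFAP, while the others ran from SLC4A4, a sodium bicarbonate cotransporter (-1.36), to HAPLN1, a link protein of the neural matrix (0.40).

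**Figure D4:**
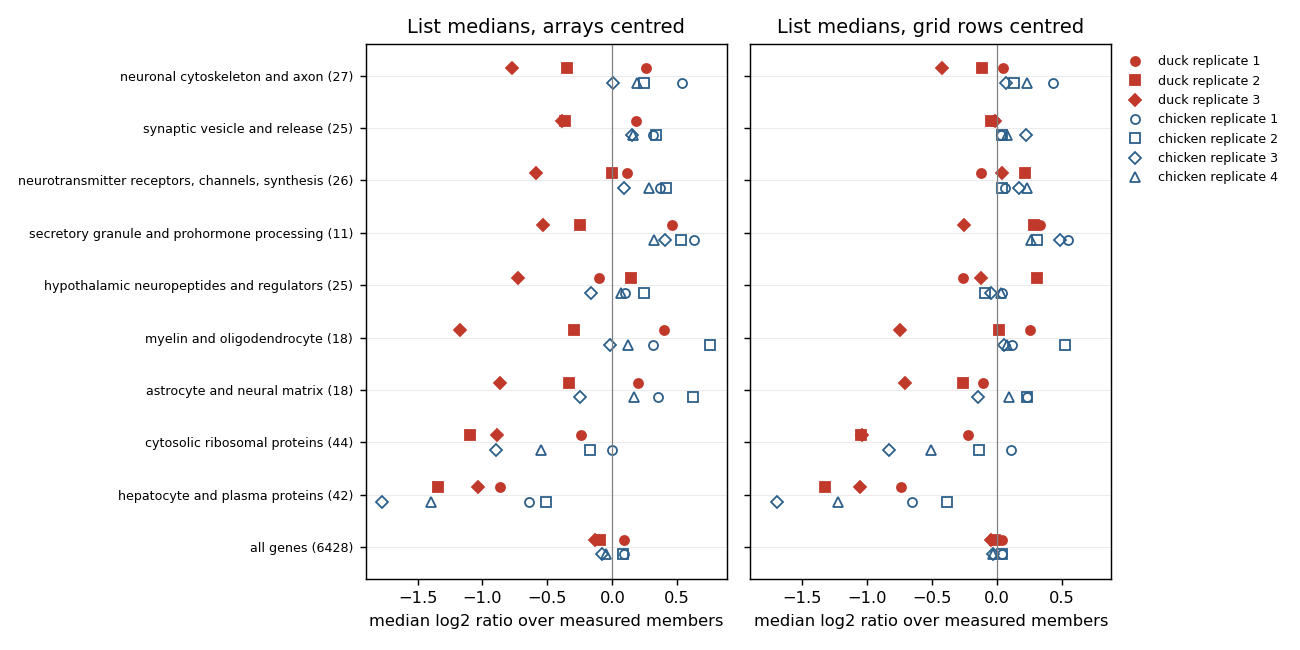
Median log2 ratio over the measured members of 9 gene lists and of all genes on each array, with arrays centred (left) and with grid rows centred (right); numbers in brackets give the measured genes, filled symbols are duck and open symbols chicken. The myelin median of duck replicate 3 lies at -1.17 on the left and -0.75 on the right. Duck replicate 1 lies among the chicken arrays for the brain lists on the left. On the right it lies below all chicken arrays for the axon, synaptic, receptor and neuropeptide lists.

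The synaptic list, too, lay below the chicken range in duck replicates 2 and 3. The median of 25 synaptic vesicle and release genes was 0.18, -0.36 and -0.39 in duck and 0.31, 0.34, 0.15 and 0.16 in chicken, and the median difference was -0.38 (-0.43 without duck replicate 3, -0.23 with grid rows centred). None of the 25 was called, beside 0.327% of all genes. Groups did not overlap for 6 (24%), all lower in duck, beside 3.92% of all genes. The lowest was STX1A, the syntaxin of the release machinery, at -1.45, -1.04 and -1.94 in duck and 0.31, 0.83, -1.03 and -0.45 in chicken (difference -1.39). SYP, the vesicle protein synaptophysin, was the highest at 0.50.

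Of 26 receptor, channel and transmitter synthesis genes 0 were called, beside 0.327% of all genes, and the median difference was -0.28. GRIN1, the obligatory subunit of NMDA receptors, was at -1.31, -2.44 and -3.65 in duck and at -0.23, -0.03, -0.73 and -0.71 in chicken. Its difference of -2.04 had an adjusted p of 0.13, although the groups did not overlap. GLUL, glutamine synthetase, had the highest difference of the list at 0.92.

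No gene of the peptide systems of the hypothalamus passed the test. With 0.327% of all genes called, a list of this size would most often hold 0. Of 25 measured neuropeptides, pituitary hormones and their regulators, 0 were called, 18 had a negative difference, and the median was -0.27 with and 0.10 without duck replicate 3. NPY, the neuropeptide that stimulates feeding, was at -0.05, 0.88 and -1.25 in duck and at 1.94, 1.35, 0.25 and 0.94 in chicken (difference -1.26, adjusted p = 0.56), and the groups overlapped. POMC, the precursor of melanocortins that reduce feeding, was at 0.66, -0.75 and -1.43 in duck and at -0.24, -0.08, -0.10 and -0.30 in chicken (difference -0.32). The duck arrays thus spread far more widely than the chicken arrays for POMC. Duck replicate 3 was the lowest array for both NPY and POMC. Without it, the duck mean of POMC lay above the chicken mean. Differences of single genes in the gene lists include duck replicate 3 unless stated otherwise.

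PENK, the enkephalin precursor, differed by -0.40 and TAC1, the tachykinin precursor, by -0.27. ADCYAP1, which encodes the peptide PACAP, differed by -0.36 with overlapping groups. DIO2, the deiodinase that activates thyroid hormone and takes part in the seasonal response of birds to day length, was at -0.16, 0.15 and -0.73 in duck and -0.05, 0.33, 0.39 and 0.11 in chicken (difference -0.44).

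Photoperiod and pituitary genes showed the ends of the range. POU1F1, a transcription factor of pituitary cells, had the lowest difference of the list, at -0.85, -1.53 and -2.23 in duck and -0.42, 0.10, 0.23 and -0.43 in chicken (-1.41, adjusted p = 0.18). It was the only member whose groups did not overlap, 4% of the list, which is near the 3.92% of all genes lower in duck. OPN4, the photopigment melanopsin, differed by -1.14 and TSHB, the beta chain of thyrotropin, by 0.67, with duck replicate 2 alone at 1.94. CRHR2, a receptor of the corticotropin-releasing hormone family, was the highest at 0.83. Of the pituitary hormones, GH (-0.30) was near the list's median of -0.27 and PRL (-0.03) near the median of all genes, -0.01.

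Granule proteins package such peptides. Of 11 secretory granule and prohormone processing genes 0 were called, beside 0.327% of all genes. Of the 11, 8 had a negative difference, and the median was -0.61, or -0.23 without duck replicate 3. CHGB, chromogranin B, was at 0.46, -0.25 and -1.48 in duck and at 1.33, 1.19, 0.51 and 1.00 in chicken (difference -1.43). SCG5, the chaperone of a prohormone convertase, was at 0.30, -1.23 and -0.49 in duck and at 0.77, 0.77, 0.89 and 0.97 in chicken (difference -1.32). PAM, the enzyme that amidates peptides, was the highest at 0.58. CPE, the carboxypeptidase of this pathway, was -0.61 as a gene, with 1 of its 3 probes called at -1.5 and the others at -0.57 and 0.25.

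Among lists outside the brain cell types, vesicle coat and adaptor genes had AP1M1 as the only called member of 34. The others ran from AP2M1, the medium subunit of the endocytic adaptor (-1.28), to AP3S1 (1.06), and the list's median was -0.17. Cytosolic ribosomal proteins had 33 of 44 negative differences and a median of -0.35 (-0.30 without duck replicate 3, -0.37 with grid rows centred), with 0 called. Their array medians were -0.24, -1.09 and -0.89 in duck and -0.01, -0.17, -0.90 and -0.55 in chicken, so the groups overlapped and the arrays of the first set were the higher ones in both species. RPL13 was the lowest (-2.09, adjusted p = 0.10) and RPS15 the highest (1.53).

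Markers of blood, choroid plexus and other tissues were listed as a check of the dissection. Hepatocyte and plasma proteins had array medians of -0.86, -1.35 and -1.03 in duck and -0.65, -0.51, -1.77 and -1.40 in chicken. For 9 erythrocyte genes the medians were 0.50, -0.09 and -0.69 in duck and 0.32, 0.45, -1.01 and 0.13 in chicken. For 26 leukocyte and microglia genes they were -0.01, -0.65 and -0.56 in duck and 0.16, 0.05, -0.60 and -0.26 in chicken, and for 6 choroid plexus and ependymal genes 0.16, -0.37 and -0.83 in duck and 0.27, -0.27, -0.22 and -0.39 in chicken. The part of these cells in the results above was not tested. In every list other than those of GFAP, AP1M1 and SNRK 0 genes were called, beside 0.327% of all genes.

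The same species comparison was made in liver. The chicken livers came from 6-week-old broiler cockerels, and the chicken hypothalami from 9-week-old males of the lean line. In chicken, tissue thus cannot be told apart from age and line. Of the 21 called genes, 20 were also lower in duck liver than in chicken liver, as were 3160 of all 6428 genes. Of the 20, 10 passed the test there, in a comparison that calls 49 genes, all lower in duck liver. The 2 comparisons share no array. AP1M1 averaged -2.89 ± 0.83 in duck liver and -0.81 ± 0.54 in chicken liver (SD, n = 4 each), and its liver difference of -2.08 had an adjusted p of 0.072. SNRK averaged -2.11 ± 0.49 in duck liver and 0.08 ± 0.80 in chicken liver (difference -2.19, adjusted p = 0.026). CYP2D6 had the largest liver difference of the 21 (-2.61, adjusted p = 0.0032). Over all 6428 genes the hypothalamus and liver differences correlated across genes at r = 0.154 and rho = 0.092, which describes genes that share arrays and probes.

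The test of the difference between tissues, in which chicken age and line differ too, called 2 of 6428 genes. The same fit called 0 of 6428 genes between duck liver and duck hypothalamus (smallest limma adjusted p = 0.097). A low count of calls therefore does not show that few genes differ. For METTL15P1 the duck minus chicken difference was -2.62 in hypothalamus and 1.19 in liver, where duck averaged 0.05 ± 0.57 and chicken -1.14 ± 1.01 (SD, n = 4 each). The hypothalamus minus liver value was -3.81 ± 0.69 (SE, limma adjusted p = 0.0074). Without duck replicate 3 it was -3.52 and not called (adjusted p = 0.089). For STEAP3, an endosomal ferrireductase, the difference lay in liver. Duck and chicken hypothalamus averaged -1.86 ± 0.85 (SD, n = 3) and -2.21 ± 0.24 (SD, n = 4), while duck liver averaged -1.83 ± 0.34 and chicken liver 1.08 ± 0.36 (SD, n = 4 each). The hypothalamus minus liver value was 3.26 ± 0.51 (SE, adjusted p = 0.00086), and STEAP3 was called without duck replicate 3 as well.

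White turkey and Japanese quail, galliform birds like the chicken, lay between duck and chicken for the leading genes. These genes were chosen for low duck and high chicken values, which favours a place between for other groups. AP1M1 averaged -2.95 ± 0.46 in duck, -1.06 ± 0.40 in White turkey, -1.09 ± 0.32 in Japanese quail (SD, n = 3 each) and 1.08 ± 0.65 in chicken hypothalamus (SD, n = 4). SNRK averaged -2.53 ± 0.86, -1.74 ± 0.59, -1.17 ± 0.43 and 1.08 ± 0.65 in the same order. The ranges of turkey and quail overlapped for both genes. GFAP averaged -1.84 ± 0.79 in duck, -0.86 ± 0.48 in White turkey, -1.31 ± 0.22 in Japanese quail and 0.64 ± 0.74 in chicken. METTL15P1 was nearer to chicken in both, at -1.30 ± 0.83 in duck, 0.83 ± 0.12 in White turkey, 0.14 ± 0.61 in Japanese quail and 1.33 ± 0.73 in chicken.

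**Figure D5:**
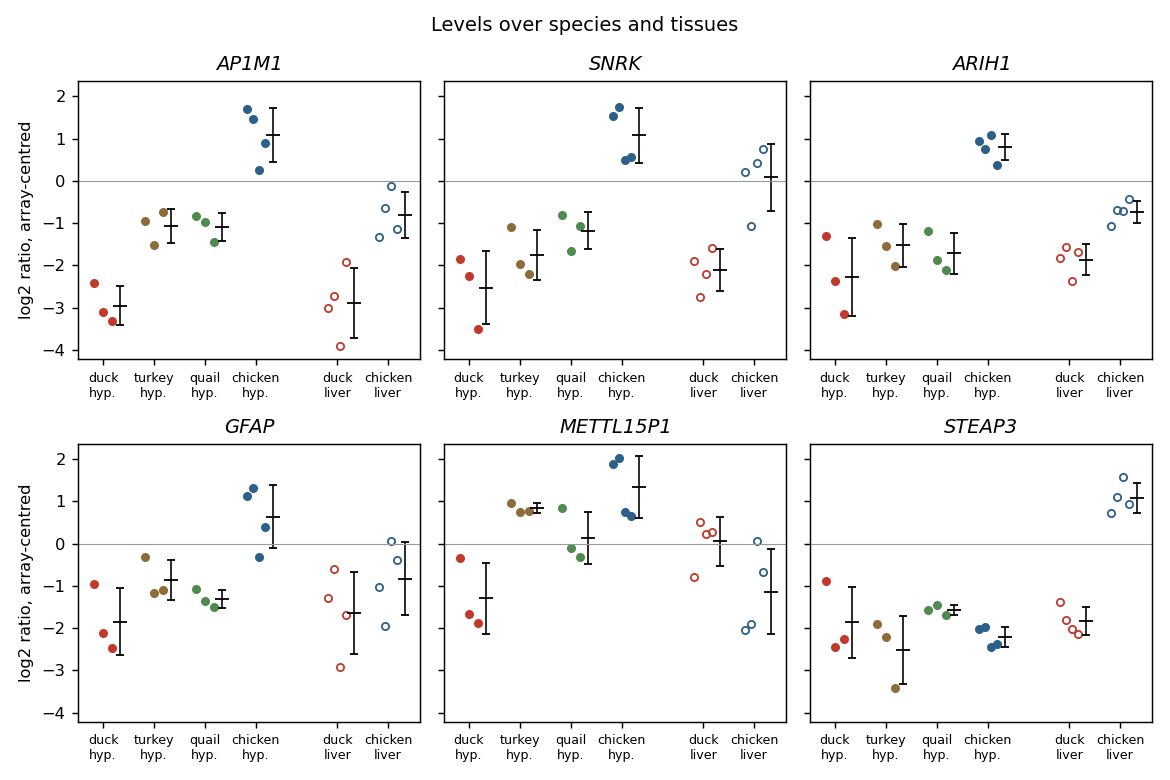
Log2 ratio centred on the array median of 6 genes in duck, White turkey, Japanese quail and chicken hypothalamus (hyp., filled points) and in duck and chicken liver (open points); each point is 1 array, and bars show mean and SD. AP1M1, SNRK, ARIH1 and GFAP average above 0 in chicken hypothalamus and below 0 in the hypothalamus of the other 3 species, METTL15P1 averages below 0 in duck hypothalamus alone among the hypothalami, and STEAP3 averages above 0 in chicken liver alone.

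Tested directly, no gene passed between duck hypothalamus and that of the other 2 species. Against White turkey 0 of 6428 genes were called by limma (303 at an unadjusted p under 0.05), with a smallest adjusted p of 0.87. METTL15P1 at -2.13, SNCB at -1.86 and MBP at -1.96 were among the largest named differences. The MBP value includes duck replicate 3, the lowest duck array for that gene. Against Japanese quail 0 genes were called (387 at an unadjusted p under 0.05), with AP1M1 at -1.86. Without duck replicate 3, limma called 0 genes against White turkey and 0 against Japanese quail. At an unadjusted p under 0.05 there were then 128 and 167. With so few arrays, 0 calls do not show equal levels. Of the 21 genes, 17 were lower in duck than in White turkey and 19 lower than in Japanese quail, by a median of -0.40 and -0.56. Of all 6428 genes, 3285 and 3473 were lower in duck. The 21 were chosen for low values on the same 3 duck arrays, so a lean towards lower in duck is built in. For comparison, turkey minus chicken and quail minus chicken, which use the same 4 chicken arrays as duck minus chicken, called 9 and 3 genes, all lower than in chicken. For the 21 genes the medians were -2.32 for duck, -1.84 for White turkey and -1.78 for Japanese quail against chicken.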

How the data were processed

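The deposited values, 1 ratio of the 2 channels per spot and array, were made by the authors; which channel is the numerator, and how background and dyes were treated, is not stated in the labels or headers used. Here they were put on the log2 scale and centred on each array's median. Each array had 19200 spots in 48 print blocks; 10601 spots carried 1 gene symbol, 8599 none and 0 several, and 10455 of the named spots matched the current chicken gene table. Spots of a clone were averaged to 18547 probes and probes to 6428 genes, 3827 of them on 1 probe. One mean per combination of species and tissue (12 groups, 43 arrays) was estimated with limma 3.58.1 under R 4.3.3, with eBayes. The p-values were adjusted over all genes or probes per contrast, with a threshold of 0.05. The fit was also run on simulated data with independent noise on each array. That simulation held no array sets or grid rows, so it does not cover their effect on the calls. Among the 12 groups, 4 contrasts were tested with the alternatives below, and 26 gene lists described by counts and medians. Turkey minus chicken and quail minus chicken hypothalamus, duck minus chicken liver, and duck liver minus duck hypothalamus were tested in the same fit, without the alternatives. Members and lists were chosen with earlier results of these data known. Named genes were up to 15 called genes per direction whose groups did not overlap, and called list members with the highest and lowest others. Defining markers of brain cells were named too, as were up to 5 genes per direction in the others of the 4 contrasts. Alternatives covered scaling, arrays used, weights and replicates. Replicate numbers were not used as pairs: deviations of same-numbered duck and chicken arrays correlated at 0.605, -0.204 and 0.461. Tables and plots used Python 3.11.15, pandas 2.3.3 and matplotlib 3.10.9.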

Additional observations from a re-analysis of the deposited data

Results flagged for a closer look

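Among 59 sets of 4 chicken hypothalamus values (named genes, list medians and array measures), 2 had 1 array set apart from the other 3, where chance gives about 1 in 20. For CNP it was replicate 2 at 1.94, against 0.53, 0.56 and 0.75 in the others. For the share of an array's variance between print blocks it was replicate 2 as well, at 20.4%, against 4.37%, 5.43% and 3.61% in replicates 1, 3 and 4.

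The duck minus chicken difference itself differed between hypothalamus and liver for METTL15P1 (-3.81, lower in duck hypothalamus) and STEAP3 (3.26, lower in duck liver), by the test of the difference of differences. The chicken hypothalami and livers also differed in age and line.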

How the results depend on the processing

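The 21 genes called lower in duck stayed lower in duck under each of the 19 alternatives run, and AP1M1, SNRK and ARIH1 were called under each. For alternatives that only left out or weighted arrays this sign was fixed, as the groups of the 21 did not overlap. The number of called genes was 10 with arrays scaled to an equal median absolute deviation, 10 without the 3 arrays that stand apart in the series (duck hypothalamus replicate 3, a breast muscle and a sparrow liver array), 3 when only the 7 arrays were fitted, and 11 with grid rows centred. Array weights gave 649, with 354 higher in duck; that weight fit stopped before its convergence tolerance. The number of called probes was 59 without centring, 21 with equal median absolute deviation, 47 on the 7 arrays, 36 without the 3 arrays that stand apart and 2670 with array weights. Genes called for the hypothalamus minus liver difference numbered 10 after quantile normalisation, 4 with equal median absolute deviation, 4 with print blocks centred, 5 on the arrays of its groups, 1 without the 3 arrays and 179 with array weights. Array weights gave 56 genes between duck and White turkey and 1743 between duck and Japanese quail, where the other alternatives gave 0, except 1 against White turkey without duck replicate 1. The cause was not tested. Leaving out 1 array at a time gave 3 to 77 genes, 15 to 272 probes, 1 to 5 genes for the tissue difference, 0 to 1 against White turkey and 0 to 0 against Japanese quail. The replicate block called 22 genes, 20 of the 21 and 1 higher in duck, 89 probes, 2 genes for the tissue difference and 0 in the others; the replicate numbers do not pair the birds. The TUBB3 difference ran from -1.87 to 0.20 over the left-out arrays and was 0.20 without the 3 arrays. That of PTPRN ran from -0.52 to 0.37, was 0.37 without the 3 arrays and 0.21 with array weights. That of STEAP3 ran from -0.14 to 0.64. Without centring, the median of all genes was -0.28 against White turkey and -0.32 against Japanese quail. Depth is unknown, as no spot intensities are given.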
